A study of Mus musculus with 36 samples.

Results

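The genes described here are 10 components of the machinery that brings calcium into a cell, stores it and pumps it out: Casr, Orai1, Stim1, Stim2, Atp2a2, Atp2b1, Atp2b4, Atp2c1, Plcg1 and Itpr3. They were chosen by name and make up 10 of the 55358 genes in the table of read counts. Of these, 9 passed the filter on low counts that 15114 genes passed, and Casr did not. The question asked of them is how this machinery responds, at the level of RNA, to a change of the calcium concentration in the medium.

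RNA was sequenced from murine keratinocytes in 36 libraries, which fall into 12 groups of 3 replicates. The WT and PKP4-KO cells were isolated from the skin of newborn Pkp4+/+ and Pkp4-/- pups on a C57BL/6 J background, and the Pkp4-/- animals lack exon 9 of Pkp4, the gene of the junctional protein plakophilin 4. Rescue cells are PKP4-KO cells that received human PKP4 fused to EGFP from a lentivirus and were selected with puromycin as a stable line, so that they carry the deletion too. Each line was kept in low calcium medium (LCM, 50 µM CaCl2) or in high calcium medium (HCM, LCM with 1.2 mM CaCl2 added), which induces keratinocyte differentiation, and harvested at 24 h or 72 h. Different pups gave the WT and the PKP4-KO cells, and Rescue cells were also transduced and selected, so that these differences cannot be told apart from that in PKP4.

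Keratinocytes sense extracellular calcium through the receptor encoded by Casr, and phospholipase C converts such signals into inositol trisphosphate, which opens inositol trisphosphate receptors in the membrane of the endoplasmic reticulum. The fall of calcium in the store is sensed by STIM proteins, which open ORAI channels in the plasma membrane, whereas SERCA pumps refill the store, Golgi pumps load the secretory pathway and PMCA pumps export calcium from the cell. In human skin, inherited defects of the pumps encoded by ATP2A2 and ATP2C1 cause Darier disease and Hailey-Hailey disease, which both disturb the cohesion of keratinocytes.

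Total counts lay between 13602728 and 22467187 per library, with a median of 17353519.5. Levels are given in CPM, counts scaled to a common library size with TMM factors, which correct for differences in RNA composition. Endogenous Pkp4 RNA lay between 33.4 and 76.3 CPM in WT, between 6.40 and 14.1 CPM in PKP4-KO and between 6.52 and 11.9 CPM in Rescue cells, and reads of the GFP-PKP4 transgene numbered 1902 to 15325 in Rescue and 0 to 113 in the other libraries. The summed level of 7 basal keratinocyte markers was between 23230 and 72880 CPM, compared with 0.381 to 18.6 CPM for 7 fibroblast, 0.700 to 6.67 CPM for 7 melanocyte, 0 to 1.02 CPM for 6 leukocyte and 2.50 to 6.41 CPM for 4 endothelial markers. Of the basal markers, Krt5, Trp63, Itgb4 and Col17a1 had lower means in HCM than in LCM in each line at both times. Itga6 did so except in PKP4-KO 24 h, and Krt14 and Krt15 went both ways. The part of the basal markers in the response of the members was not tested. The sum of 4 markers of simple epithelium was 90.84 to 377.6 CPM in Rescue and 3.592 to 18.97 CPM in WT and PKP4-KO. Nearly all of it in Rescue was Krt7 (group means of 96.8 to 346.6 CPM), while the group means of Krt8, Krt18 and Krt19 there were 8.283 CPM or less. The sum of 7 markers of differentiated keratinocytes ranged from 72.1 to 9438 CPM, with the 3 PKP4-KO 72 h HCM libraries at the top (8436 to 9438 CPM, against 935.5 to 1196 CPM in WT 72 h HCM). Krt1 and Krt10 made up most of that sum, with means of 3752 and 4437 CPM against 39.7 and 533 CPM in WT, whereas Ivl, Lor and Dsg1a had lower means in PKP4-KO (20.3, 40.5 and 48.9 CPM against 144, 239 and 74.4 CPM). It was higher in HCM than in LCM in 5 of the 6 comparisons of the media, but lower in Rescue 72 h, with 687.6 to 857.5 CPM against 1163 to 1276 CPM. Of the 7 markers, 3 to 5 were called higher in HCM in each comparison, and 1 was called lower in WT 72 h and Rescue 72 h (Tgm3, log2 fold changes of -1.997 and -3.057) and in PKP4-KO 24 h (Ivl, -1.33). Libraries also differed in how their levels depended on gene length. In all 3 libraries of PKP4-KO cells at 72 h HCM the log2 level fell with gene length by 0.481 to 0.537 per doubling of length relative to the mean of all libraries, while the slope was between -0.341 and 0.258 in the other 33 libraries. A further 7 libraries were low in long genes relative to their own group: WT 24 h HCM replicate 2, WT 72 h HCM replicate 3, PKP4-KO 24 h LCM replicate 1, PKP4-KO 24 h HCM replicate 3, PKP4-KO 72 h LCM replicate 2, Rescue 24 h LCM replicate 3 and Rescue 72 h LCM replicate 2. Atp2a2, Atp2c1 and Stim2 had their lowest level of the group in all 7 of these libraries, Atp2b1 and Itpr3 in 6, Atp2b4 in 5, Stim1 in 3, Plcg1 in 2 and Orai1 in 1. The part of gene length in the results was not tested beyond the fits with an offset for it and without these 7 libraries.

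**Figure D1:**
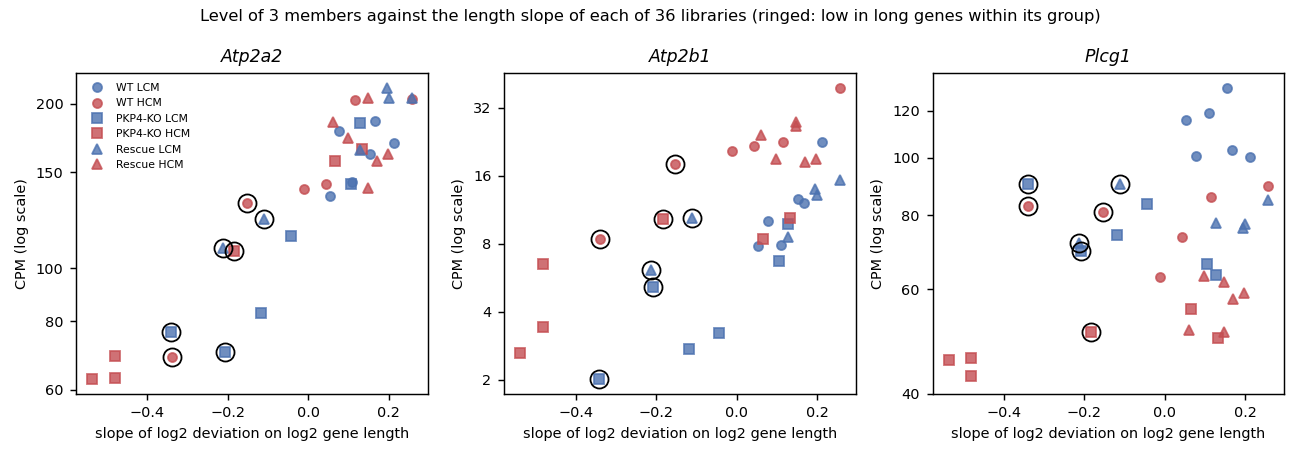
Level of Atp2a2, Atp2b1 and Plcg1 (CPM, log scale) in each of the 36 libraries against the slope of that library's log2 deviation on log2 gene length. Circles, squares and triangles are WT, PKP4-KO and Rescue, blue is LCM, red is HCM, and the 7 ringed libraries were low in long genes within their group; Atp2a2 was lowest of its group in all 7 and Plcg1 in 2.

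Casr, the gene of the calcium-sensing receptor, had almost no reads. A single read was counted in 1 of the 36 libraries, PKP4-KO 72 h LCM replicate 2. A count of 0 allows up to 3 counts, which correspond to 0.110 to 0.436 CPM depending on the library, for counting error only. No comparison was made for this gene. The other 9 members had reads in all 36 libraries. Per kilobase of exon sequence in the table, the mean level over all libraries was highest for the SERCA pump Atp2a2 with 23.8 CPM per kb, followed by Plcg1 with 9.57, Itpr3 with 7.20, Orai1 with 6.82, Stim1 with 4.44, Stim2 with 3.45, Atp2c1 with 2.15, Atp2b1 with 0.869 and Atp2b4 with 0.652 CPM per kb. The order depends on the length used. With the length of the canonical transcript Stim1 reached 10.4 CPM per kb and rank 3, since its exons in the table cover 10371 bases but the transcript only 4444. Itpr3 then came after Orai1, with 7.23 against 7.89 CPM per kb. Stim2 came after Atp2c1, with 3.589 against 3.603 CPM per kb.

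**Figure D2:**
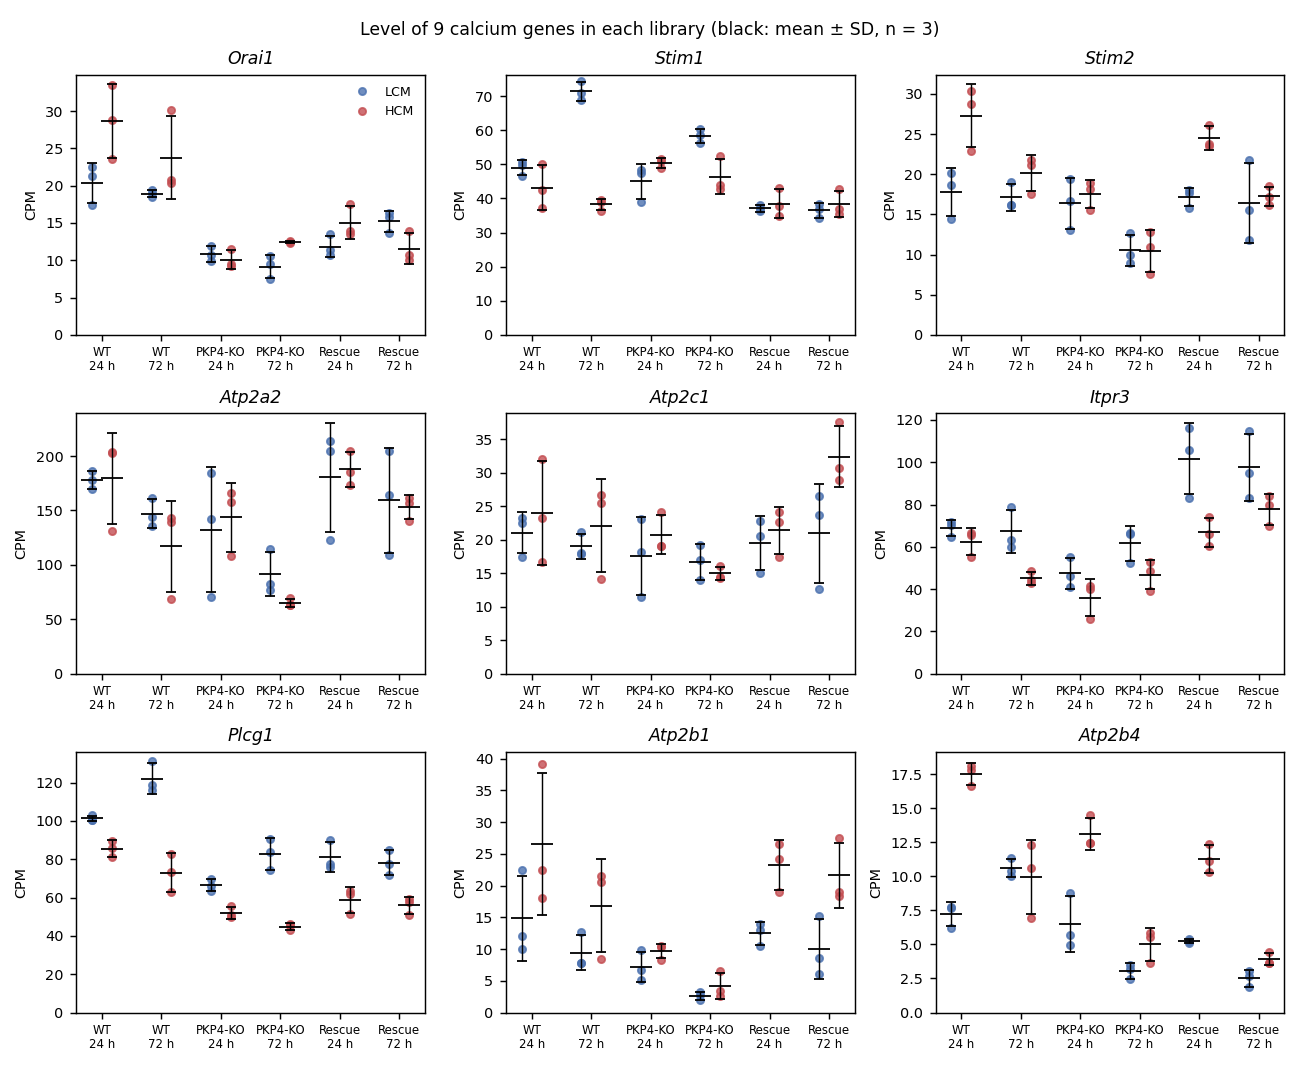
Level of the 9 tested genes in CPM (linear axis from 0) in each library, by line and time, with LCM in blue and HCM in red. Points are libraries and black bars are means ± SD of 3 libraries; Atp2b4 at 24 h is higher in HCM in all 3 lines, and Plcg1 at 72 h is lower.

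The switch from LCM to HCM changed a few of the members in each line, in both directions. The most regular changes were a rise of Atp2b4, a plasma membrane calcium pump, at 24 h and a fall of Plcg1, the phospholipase C isoform activated by receptor tyrosine kinases, at 72 h. These were the members called in the same direction in all 3 lines at the respective time. At each time this was 1 of the 9 tested members, compared with 190 of the 15114 tested genes at 24 h and 656 at 72 h. These shares were not compared by a test. Calls are made at an adjusted p-value below 0.05 in edgeR's quasi-likelihood test. In bulk RNA, fewer cells of a kind and less RNA per cell cannot be told apart.

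In WT cells 3 of the 9 members were called at 24 h, all higher in HCM, against 14.2% of all genes called, 7.69% higher and 6.48% lower. At 72 h WT cells again had 3 calls, all lower, against 21.4% of all genes, 10.6% higher and 10.8% lower. PKP4-KO cells had 1 call at 24 h, higher, against 2.83% of all genes, 1.44% higher and 1.40% lower. At 72 h they had 4 calls, 2 higher and 2 lower, against 32.6% of all genes, 12.9% higher and 19.7% lower. Rescue cells had 3 calls at 24 h, 1 higher and 2 lower, against 12% of all genes, 6% higher and 5.96% lower. At 72 h they had 3 calls, 2 higher and 1 lower, against 24.9% of all genes, 13.0% higher and 12% lower. The median log2 fold change of the 9 members was 0.19, -0.08, 0.12, -0.16, 0.14 and 0.07 in WT 24 h, WT 72 h, PKP4-KO 24 h, PKP4-KO 72 h, Rescue 24 h and Rescue 72 h. That of all tested genes was 0.02, 0.01, -0.01, -0.08, -0.04 and -0.01. Library sizes without TMM factors moved the median of all genes to -0.27 in WT 24 h, -0.29 in WT 72 h and -0.77 in PKP4-KO 72 h. The share of calls that were higher in HCM moved with it, from 54.3% to 24.8%, from 49.6% to 25.6% and from 39.5% to 8.17%, respectively, and from 52.0% to 63.2% in Rescue 72 h. With DESeq2 the share in PKP4-KO 72 h was 50.8%. In PKP4-KO 24 h and Rescue 24 h, dropping the filter on low counts moved it from 50.7% to 60.8% and from 50.2% to 60.7%, and a fit of only the compared groups, which called 10 genes in PKP4-KO 24 h compared with 428, gave 40% there.

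**Figure D3:**
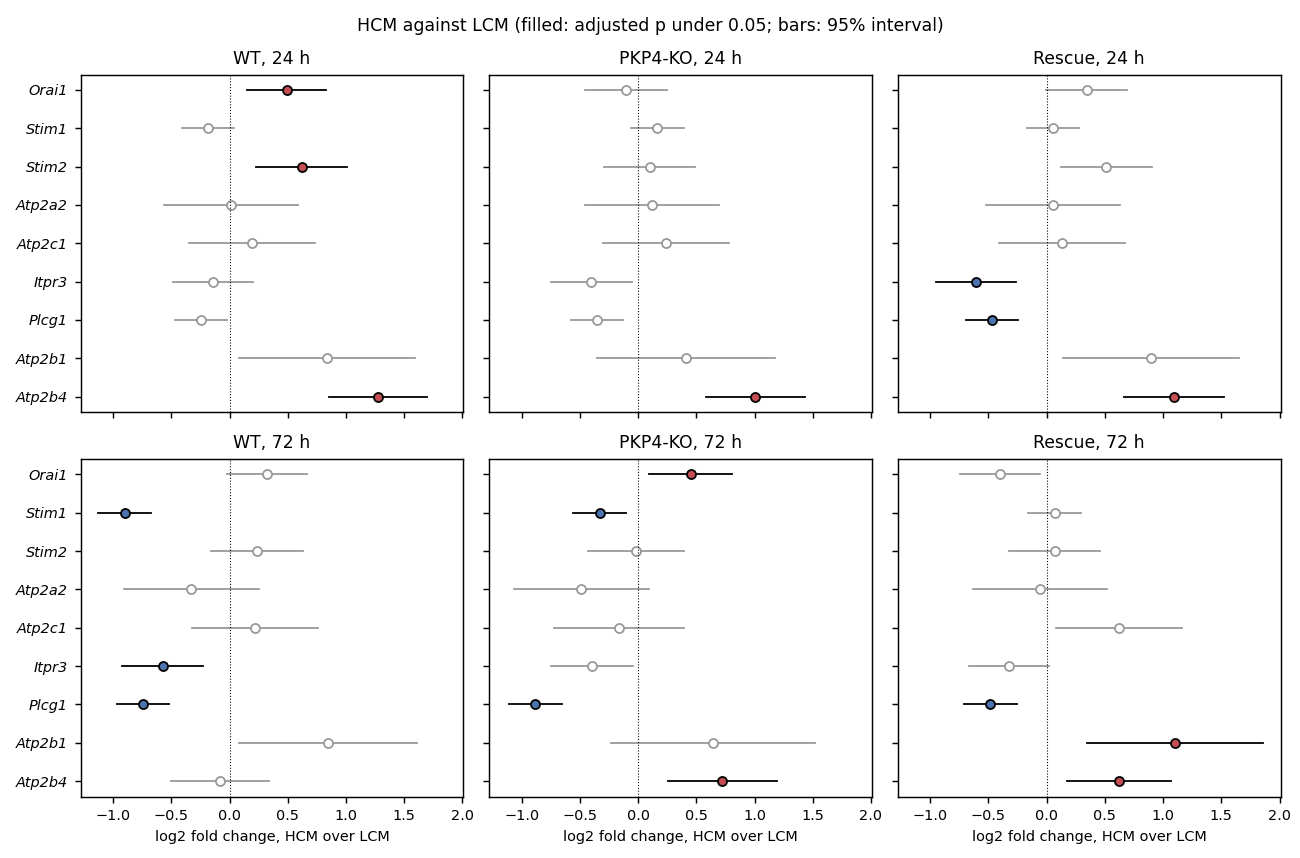
Log2 fold change of HCM over LCM for the 9 tested genes in each line at 24 h (upper row) and 72 h (lower row), with 95% intervals. Filled points passed an adjusted p of 0.05, red for higher and blue for lower in HCM; Atp2b4 is red in all 3 lines at 24 h with 1.28, 1.01 and 1.09, and Plcg1 is blue in all 3 at 72 h with -0.74, -0.88 and -0.48.

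Among the pumps that export calcium, Atp2b4 (ENSMUSG00000026463), which encodes PMCA4, lies on the reverse strand of chromosome 1 of GRCm39, from 133627195 to 133728923, and its canonical transcript has 21 exons. In WT cells at 24 h its level was 7.72, 6.18 and 7.71 CPM in LCM and 17.8, 16.6 and 18.1 CPM in the HCM libraries. In PKP4-KO cells at 24 h it was 4.93, 5.72 and 8.80 CPM in LCM and 12.4, 12.4 and 14.5 CPM in HCM. In Rescue cells at 24 h it was 5.28, 5.42 and 5.11 CPM in LCM and 11.1, 10.3 and 12.4 CPM in HCM. All HCM libraries of a line were thus above all of its LCM libraries. The log2 fold changes at 24 h were 1.28 ± 0.21 (SE, adjusted p = 5.13e-05) in WT, 1.01 ± 0.21 (adjusted p = 0.00483) in PKP4-KO and 1.09 ± 0.21 (adjusted p = 0.000492) in Rescue, which are folds of 2.43, 2.01 and 2.13. The call in PKP4-KO at 24 h was lost without TMM factors (adjusted p = 0.0982) and in a fit of only the compared groups (adjusted p = 0.242), with log2 fold changes of 0.98 and 1.04. At 72 h the levels in WT cells were 10.03, 11.4 and 10.4 CPM in LCM and 12.3, 10.6 and 6.97 CPM in HCM. The groups overlapped, with a log2 fold change of -0.08 (95% interval -0.50 to 0.34). PKP4-KO cells at 72 h had 2.44, 3.52 and 3.20 CPM in LCM and 5.84, 3.63 and 5.56 CPM in HCM. Rescue cells at 72 h had 3.04, 1.84 and 2.68 against 3.66, 4.44 and 3.66 CPM. In these lines HCM was above LCM in every library, with log2 fold changes of 0.72 ± 0.23 (adjusted p = 0.0154) and 0.62 ± 0.22 (adjusted p = 0.0369), respectively. The call in PKP4-KO at 72 h was lost without LCM replicate 1, HCM replicate 1 or HCM replicate 3 (adjusted p up to 0.0884). Without TMM factors this value was 0.047 (adjusted p = 0.915), and the call was also lost without a filter on low counts (adjusted p = 0.0644) and in a fit of only the compared groups (adjusted p = 0.0818). That in Rescue at 72 h was lost without LCM replicate 2 or 3 or any of the HCM replicates (adjusted p up to 0.201) and without the 7 libraries low in long genes (adjusted p = 0.104). It was lost as well with an offset for gene length (log2 fold change 0.37, adjusted p = 0.151), without TMM factors, without a filter and with only the compared groups (adjusted p = 0.0991, 0.147 and 0.124).

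Atp2b1 (ENSMUSG00000019943), which encodes the broadly expressed pump PMCA1, lies on the forward strand of chromosome 10 from 98750268 to 98862488. Its level in HCM and LCM was 39.2, 18.0 and 22.5 against 22.5, 10.03 and 12.1 CPM in WT at 24 h. In WT at 72 h it was 20.6, 21.6 and 8.41 against 7.77, 12.6 and 7.87 CPM. PKP4-KO cells had 8.34, 10.4 and 10.3 against 5.15, 6.73 and 9.79 CPM at 24 h. At 72 h they had 6.48, 2.62 and 3.41 against 2.74, 2.01 and 3.20 CPM. Rescue cells had 19.0, 26.6 and 24.2 against 13.1, 13.9 and 10.4 CPM at 24 h. At 72 h they had 18.3, 19.0 and 27.5 against 15.2, 6.11 and 8.55 CPM. The groups overlapped in WT and PKP4-KO at both times and were separate in Rescue at both times. The log2 fold changes were 0.84, 0.85, 0.41, 0.64, 0.90 and 1.105 in WT 24 h, WT 72 h, PKP4-KO 24 h, PKP4-KO 72 h, Rescue 24 h and Rescue 72 h, all positive, although the value in PKP4-KO 72 h was -0.06 without TMM factors. The value in Rescue 72 h passed the test (SE 0.37, adjusted p = 0.0288) and the other 5 did not. It no longer passed without Rescue 72 h LCM replicate 2 or 3 or without HCM replicate 3 (adjusted p up to 0.154), without TMM factors (adjusted p = 0.0793) or with only the compared groups in the fit (adjusted p = 0.057). Replicates of Atp2b1 were far apart, with an SD of 11.1 CPM at a mean of 26.6 CPM in WT 24 h HCM. With an offset for gene length, which was chosen after seeing the data, 5 of the 6 values passed, 0.94 in WT 24 h (adjusted p = 0.00317), 1.01 in WT 72 h (adjusted p = 0.00152), 1.03 in PKP4-KO 72 h (adjusted p = 0.00561), 0.92 in Rescue 24 h (adjusted p = 0.00456) and 0.83 in Rescue 72 h (adjusted p = 0.00594). The value in WT passed in 1 of 6 fits without a single library at 24 h (adjusted p = 0.0429) and in 1 of 6 at 72 h (adjusted p = 0.0324). That in Rescue 24 h passed in a fit of only the compared groups (adjusted p = 0.0153).

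Plcg1 (ENSMUSG00000016933), on the forward strand of chromosome 2 from 160573176 to 160647426, stands at the start of the pathway that empties the store. Its level at 72 h was 116, 131 and 119 CPM in LCM and 62.9, 73.5 and 82.9 CPM in HCM in WT cells. PKP4-KO cells at 72 h had 74.1, 90.5 and 83.6 CPM in LCM and 46.0, 45.6 and 42.8 CPM in HCM. Rescue cells at 72 h had 85.1, 71.8 and 77.7 CPM in LCM and 57.8, 59.2 and 50.8 CPM in HCM. The HCM libraries lay below the LCM libraries in each line. The log2 fold changes were -0.74 ± 0.11 (SE, adjusted p = 9.13e-06) in WT, -0.88 ± 0.11 (adjusted p = 6.38e-07) in PKP4-KO and -0.48 ± 0.11 (adjusted p = 0.00156) in Rescue, which are folds of 0.598, 0.542 and 0.715. At 24 h the levels were 100.3, 101 and 103 CPM in LCM and 89.7, 81.0 and 86.0 CPM in HCM in WT. They were 69.6, 66.1 and 63.4 CPM against 55.6, 49.7 and 50.8 CPM in PKP4-KO. In Rescue cells they were 77.3, 76.2 and 90.3 CPM against 63.2, 61.7 and 51.2 CPM. HCM was again below LCM in every line. The change of -0.47 ± 0.11 in Rescue (adjusted p = 0.00377) passed, while those of -0.24 in WT (adjusted p = 0.151) and -0.35 in PKP4-KO (adjusted p = 0.0855) did not. The call in Rescue at 24 h was lost with an offset for gene length, without a filter and with only the compared groups (adjusted p = 0.0524, 0.0823 and 0.0731), and that in Rescue at 72 h without TMM factors (adjusted p = 0.101). The 3' end of the locus is shared with Zhx3 on the opposite strand, a gene with 5232 reads in all compared with 50094 of Plcg1. Whether the counting used strand is not stated in the sources used here.

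Of the proteins that let calcium in, Orai1 (ENSMUSG00000049686) encodes the pore of the store-operated channel, on the forward strand of chromosome 5 from 123153043 to 123168535. In WT cells at 24 h its level was 17.3, 21.2 and 22.5 CPM in LCM and 23.5, 28.8 and 33.5 CPM in HCM, without overlap. PKP4-KO cells at 72 h had 9.45, 10.6 and 7.45 CPM in LCM and 12.6, 12.4 and 12.5 CPM in HCM. Rescue cells at 72 h ran the other way, with 13.6, 15.8 and 16.3 CPM in LCM and 10.01, 13.9 and 10.8 CPM in HCM, and overlapped. Orai1 passed the test in WT at 24 h with a log2 fold change of 0.49 ± 0.17 (adjusted p = 0.0468) and in PKP4-KO at 72 h with 0.45 ± 0.18 (adjusted p = 0.0483). It had values of 0.32 in WT at 72 h, -0.10 in PKP4-KO at 24 h, 0.34 in Rescue at 24 h and -0.40 in Rescue at 72 h (adjusted p = 0.0831) that did not pass. Both calls are close to the threshold, and without TMM factors the value in PKP4-KO at 72 h was -0.22 and that in WT at 24 h 0.20 (adjusted p = 0.485). Both were also lost with an offset for gene length, without a filter and with only the compared groups. The call in WT was lost without the 7 libraries low in long genes (0.48, adjusted p = 0.0502), and without any of the LCM replicates or HCM replicate 2 or 3 (adjusted p up to 0.236). That in PKP4-KO was lost without LCM replicate 1 or 3 or any of the HCM replicates (adjusted p up to 0.253).

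Stim1 (ENSMUSG00000030987), the main calcium sensor of the store, lies on the forward strand of chromosome 7 from 101916979 to 102086526. In WT cells at 72 h it fell from 68.8, 74.4 and 71.1 CPM in LCM to 36.4, 38.9 and 39.5 CPM in HCM, a log2 fold change of -0.90 ± 0.11 (adjusted p = 5.26e-07) and a fold of 0.536. This WT 72 h LCM group held the highest mean of Stim1 among the 12 groups, 71.4 ± 2.81 CPM (SD, n = 3). At 72 h PKP4-KO cells had 56.1, 60.3 and 58.7 CPM in LCM and 44.0, 42.9 and 52.5 CPM in HCM, with a log2 fold change of -0.33 ± 0.11 (adjusted p = 0.0233). Rescue cells had 38.5, 34.2 and 36.8 against 36.9, 42.7 and 35.3 CPM, with 0.07 (95% interval -0.16 to 0.29). The medium thus separated the libraries of WT and PKP4-KO at 72 h but not those of Rescue. The difference of the response between Rescue and PKP4-KO at 72 h was 0.40 and did not pass (adjusted p = 0.0518). It passed in 3 of 12 fits without a single library. The response of Rescue was not tested against that of WT. At 24 h the levels in LCM were 46.6, 50.7 and 49.8 CPM in WT, 39.06, 47.6 and 48.4 CPM in PKP4-KO and 36.3, 38.1 and 36.9 CPM in Rescue cells. The log2 fold changes of -0.18, 0.17 and 0.05 did not pass. The call in PKP4-KO at 72 h was lost without LCM replicate 2 or 3 or HCM replicate 1 or 2 (adjusted p up to 0.108). With an offset for gene length the value was 0.03 (adjusted p = 0.921), and with DESeq2 it was -0.22 (adjusted p = 0.0967). It also failed without a filter (adjusted p = 0.118) and with only the compared groups (adjusted p = 0.114).

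Stim2 (ENSMUSG00000039156), on the forward strand of chromosome 5 from 54155778 to 54278399, encodes the sensor that responds to small losses of store calcium. At 24 h it was 18.6, 14.4 and 20.2 CPM in LCM and 30.3, 22.8 and 28.7 CPM in HCM in WT cells. Rescue cells at 24 h had 17.6, 18.0 and 15.8 CPM in LCM and 23.6, 26.2 and 23.7 CPM in HCM. The groups did not overlap in either line. The log2 fold change passed in WT with 0.62 ± 0.19 (adjusted p = 0.0264) and did not in Rescue with 0.51 ± 0.19 (adjusted p = 0.0852). PKP4-KO cells had 0.10 (95% interval -0.30 to 0.49). At 72 h the values were 0.24, -0.02 and 0.07 in WT, PKP4-KO and Rescue, and the libraries overlapped. The call in WT was lost without LCM replicate 1 or 2 or HCM replicate 1 or 3 (adjusted p up to 0.161). Without TMM factors the value was 0.34 (adjusted p = 0.459), and the call was lost too without a filter (adjusted p = 0.0741) and with only the compared groups (adjusted p = 0.06).

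Neither of the pumps that fill the stores was called in the comparisons of the media. Atp2a2 (ENSMUSG00000029467), which encodes the SERCA2 pump and lies on the reverse strand of chromosome 5 from 122591575 to 122640903, is the more abundant of them. Its level at 24 h was 169.8, 178 and 186 CPM in LCM and 204, 132 and 203 CPM in HCM in WT cells, with a log2 fold change of 0.01 (95% interval -0.57 to 0.59). At 72 h WT cells had 136, 162 and 144 CPM in LCM and 139, 143 and 68.8 CPM in HCM, with -0.33 (95% interval -0.91 to 0.25). Both intervals include 0, and the lowest HCM library of each time is among the 7 low in long genes. PKP4-KO cells at 72 h had 82.8, 76.7 and 115 CPM in LCM and 69.2, 62.8 and 63.1 CPM in HCM, separate groups with a log2 fold change of -0.49 (adjusted p = 0.188). This became -0.59 (adjusted p = 0.000744) without the 7 libraries and -1.20 (adjusted p = 0.0106) without TMM factors, but -0.18 (adjusted p = 0.54) with an offset for gene length. In PKP4-KO 24 h, Rescue 24 h and Rescue 72 h the values were 0.12, 0.06 and -0.06. Atp2a2 shares sequence on the opposite strand with Anapc7, which had 32602 reads compared with 100553 of Atp2a2.

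Atp2c1 (ENSMUSG00000032570), which encodes the calcium and manganese pump of the Golgi and lies on the reverse strand of chromosome 9 from 105280738 to 105404518, had its largest value in Rescue cells at 72 h, with 26.6, 12.6 and 23.8 CPM in LCM and 29.0, 37.6 and 30.8 CPM in HCM and a log2 fold change of 0.62 (95% interval 0.08 to 1.16, adjusted p = 0.0835). The groups were separate there, and the low LCM value belongs to the replicate low in long genes. The other 5 values lay between -0.16 and 0.24 with overlapping libraries. Aste1 on the opposite strand, with 3086 reads, overlaps Atp2c1, which had 14267.

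Itpr3 (ENSMUSG00000042644), the inositol trisphosphate receptor through which the store is emptied, lies on the forward strand of chromosome 17 from 27275971 to 27343866. At 72 h its level in WT cells was 63.1, 79.0 and 59.8 CPM in LCM and 44.1, 48.6 and 42.9 CPM in HCM. Rescue cells at 24 h had 106, 116 and 83.2 CPM in LCM and 66.0, 74.1 and 60.5 CPM in HCM. HCM was below LCM in every library of both. The log2 fold changes passed with -0.57 ± 0.17 (adjusted p = 0.0144) in WT at 72 h and -0.60 ± 0.17 (adjusted p = 0.0153) in Rescue at 24 h. The other 4 values were also negative, with -0.14 in WT 24 h, -0.40 in PKP4-KO 24 h, -0.40 in PKP4-KO 72 h and -0.33 in Rescue 72 h, and did not pass. The call in WT was lost without LCM replicate 2 or HCM replicate 3 (adjusted p up to 0.113). That in Rescue was lost without LCM replicate 1 or 2 or HCM replicate 1 or 3 (adjusted p up to 0.105). An offset for gene length gave -0.36 in WT (adjusted p = 0.0588), and the call in Rescue was lost without TMM factors (adjusted p = 0.13) and without a filter (adjusted p = 0.0587). Uqcc2 on the opposite strand overlaps Itpr3 and had more reads in all, 66689 compared with 44254.

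For the 3 members with the clearest response to the medium, Atp2b4, Plcg1 and Stim1, the 250 bases before the outermost annotated start of the gene are shown, from the GRCm39 genome and the GENCODE vM39 annotation, 5′ to 3′ on the strand of the gene, to show the sequence next to the start of each gene. They are chr1:133728924-133729173 on the reverse strand, chr2:160572926-160573175 on the forward strand and chr7:101916729-101916978 on the forward strand. Capitals mark matches on either strand to the GC box GGGCGG or the CCAAT box CCAAT.
Atp2b4: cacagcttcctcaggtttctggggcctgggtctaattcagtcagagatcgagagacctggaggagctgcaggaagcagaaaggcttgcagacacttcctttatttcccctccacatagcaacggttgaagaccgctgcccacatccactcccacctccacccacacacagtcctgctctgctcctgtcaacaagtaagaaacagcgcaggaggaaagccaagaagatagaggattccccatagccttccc
Plcg1: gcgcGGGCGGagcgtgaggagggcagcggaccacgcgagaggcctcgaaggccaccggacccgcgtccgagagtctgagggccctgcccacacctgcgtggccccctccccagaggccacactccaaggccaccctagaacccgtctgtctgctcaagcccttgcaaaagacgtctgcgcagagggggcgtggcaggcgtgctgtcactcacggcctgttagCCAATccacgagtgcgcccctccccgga
Stim1: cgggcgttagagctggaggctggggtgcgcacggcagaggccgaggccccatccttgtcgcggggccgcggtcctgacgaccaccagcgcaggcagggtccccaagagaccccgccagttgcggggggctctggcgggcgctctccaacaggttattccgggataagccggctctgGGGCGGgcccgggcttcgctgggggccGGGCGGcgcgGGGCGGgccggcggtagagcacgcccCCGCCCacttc

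The window of Atp2b4 differs from the other two in base composition, with 54.0% G or C and 4 CpG compared with 69.6% and 22 in Plcg1 and 75.6% and 29 in Stim1, while the median over the windows of 21674 protein-coding genes was 51.2%. Of 5 motifs searched on both strands, the GC box was found 4 times in the window of Stim1, once in that of Plcg1 and not in that of Atp2b4, and CCAAT was found in that of Plcg1. Neither the AP-1 motif TGANTCA nor the CRE motif TGACGTCA was found in the windows of the 10 members, and the TATA box TATAAA was found in that of Atp2c1. The GC box was found in 5 and CCAAT in 3 of the 10 windows. Of all windows, 29.9% held the GC box, 36% CCAAT, 6.48% TGANTCA, 1.31% TGACGTCA and 12.5% TATAAA. The 5 sets of letters do not overlap each other in these 3 windows. The window of Plcg1 lies before the outermost start, and the canonical transcript of the gene begins downstream of it.

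The difference of the calcium response between lines and times was tested as an interaction. Between PKP4-KO and WT, none of the 9 members was called at 24 h, with 2 at an unadjusted p under 0.05 and 0 called by DESeq2, against 4.02% of all genes called. At 72 h 1 member was called, against 5.74% of all genes: the response of Stim1 was 0.57 ± 0.16 higher on the log2 scale in PKP4-KO than in WT (adjusted p = 0.0248). Between Rescue and PKP4-KO none was called at 24 h, also with 0 at an unadjusted p under 0.05 and 0 called by DESeq2, against 1.41% of all genes. At 72 h 2 were called, against 31.5% of all genes. The response of Orai1 differed by -0.85 ± 0.24 (adjusted p = 0.00949), with -0.40 in Rescue and 0.45 in PKP4-KO, and that of Plcg1 was 0.40 ± 0.16 higher in Rescue (adjusted p = 0.049). Without TMM factors the difference of Orai1 was -0.03 (adjusted p = 0.929), and with an offset for gene length that of Plcg1 was -0.11. The call of Stim1 was lost without WT 72 h LCM replicate 2 or 3, WT 72 h HCM replicate 1, PKP4-KO 72 h LCM replicate 1 or 3 or PKP4-KO 72 h HCM replicate 3 (adjusted p up to 0.107). Its value was 0.20 without TMM factors (adjusted p = 0.672), and it did not pass without a filter (adjusted p = 0.251), with an offset for gene length (adjusted p = 0.0597) or with only the compared groups (adjusted p = 0.0527). That of Plcg1 was lost without replicate 2 or 3 of PKP4-KO 72 h LCM or Rescue 72 h LCM, any replicate of PKP4-KO 72 h HCM, or Rescue 72 h HCM replicate 1 or 2 (adjusted p up to 0.139), and with DESeq2 (0.30, adjusted p = 0.122). The call of Plcg1 was also lost with the replicate number as a block and without a filter. It was lost too without the 7 libraries low in long genes and with only the compared groups. That of Orai1 remained when any single library was left out.

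Between 72 h and 24 h, 2 members were called in WT, against 4.35% of all genes. The response of Atp2b4 differed between 72 h and 24 h by -1.36 ± 0.29 (adjusted p = 0.0043), so that the rise seen at 24 h was not found at 72 h in this line, and that of Stim1 by -0.72 ± 0.16 (adjusted p = 0.00495). In PKP4-KO cells 2 were called, against 11% of all genes, Stim1 with -0.50 ± 0.16 (adjusted p = 0.0383) and Plcg1 with -0.53 ± 0.16 (adjusted p = 0.0248). In Rescue cells 1 was called, against 12.5% of all genes, Orai1 with -0.74 ± 0.24 (adjusted p = 0.0378). The time course of Plcg1 in WT, -0.50 ± 0.15 (adjusted p = 0.0635), was close to that in PKP4-KO but did not pass. Both calls in WT remained when any single library was left out, but were lost without TMM factors (adjusted p = 0.0759 for Atp2b4 and 0.145 for Stim1), and that of Stim1 also with an offset for gene length (adjusted p = 0.137) and without a filter (adjusted p = 0.0677). That of Stim1 in PKP4-KO was lost without PKP4-KO 24 h LCM replicate 1, any replicate of 24 h HCM, 72 h LCM replicate 2 or 3 or 72 h HCM replicate 1 or 2 (adjusted p up to 0.141). That of Plcg1 in PKP4-KO was lost without 24 h LCM replicate 3, 24 h HCM replicate 1, 72 h LCM replicate 2 or 3 or 72 h HCM replicate 3 (adjusted p up to 0.0692). That of Orai1 in Rescue was lost without 24 h LCM replicate 1 or 3, 24 h HCM replicate 2, 72 h LCM replicate 2 or 3 or 72 h HCM replicate 1 or 3 (adjusted p up to 0.127), and without TMM factors (adjusted p = 0.168). With an offset for gene length, Stim1 in PKP4-KO was -0.12 (adjusted p = 0.784) and Plcg1 in PKP4-KO -0.18 (adjusted p = 0.679).

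Between PKP4-KO and WT cells nearly all calls were lower in PKP4-KO. The comparison gave 4 calls of 9 at 24 h LCM, all lower, against 40.2% of all genes called, 19.7% higher and 20.6% lower. It gave 7 calls at 72 h LCM, all lower, against 45.1% of all genes, 21.3% higher and 23.8% lower. At 24 h HCM 5 were called, all lower, against 42.8%, 20.7% higher and 22.2% lower. At 72 h HCM 7 were called, 6 lower and 1 higher, against 51.8% of all genes, 21.9% higher and 29.9% lower. The differentiated keratinocyte markers did not differ in 1 direction between the same groups. At 72 h Krt1, Krt10, Flg and Tgm3 had higher means in PKP4-KO in both media, and Ivl, Lor and Dsg1a lower means. Their sum, mostly Krt1, Krt10 and Tgm3, was 1489 to 2355 CPM in PKP4-KO and 342.3 to 383.3 CPM in WT in LCM, and 8436 to 9438 CPM against 935.5 to 1196 CPM in HCM. At 24 h the sum was 72.12 to 121.8 CPM against 123.5 to 143.2 CPM in LCM and 207.7 to 358.6 CPM against 267.1 to 380.7 CPM in HCM. The part of these markers in the results was not tested. Without TMM factors the median log2 fold change of all genes moved from 0.00 to -0.23 at 24 h LCM, from 0.02 to -0.35 at 72 h LCM and from -0.07 to -0.83 at 72 h HCM, and the share of calls that were higher from 48.9% to 34.1%, from 47.3% to 25.7% and from 42.2% to 13.5%. Orai1, Plcg1 and Atp2b1 were lower in all 4 comparisons. The highest PKP4-KO library of Orai1 had 12.6 CPM and the lowest WT library 17.3 CPM, so that the lines did not overlap in any medium or time. Its log2 fold changes were -0.91 ± 0.17 (adjusted p = 8.29e-05) at 24 h LCM, -1.05 ± 0.17 (adjusted p = 1.23e-05) at 72 h LCM, -1.50 ± 0.17 (adjusted p = 2.67e-08) at 24 h HCM and -0.93 ± 0.17 (adjusted p = 6.59e-05) at 72 h HCM. The 109 tested genes within 5 Mb of Orai1 on chromosome 5 had a median log2 fold change of -0.34, -0.53, -0.43 and -0.54 in the same comparisons, and Atp2a2 lies within this stretch. The part of the neighbourhood in these results was not tested.

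Atp2b1, the exporter, was lower in all 4 comparisons. Its log2 fold change in PKP4-KO was -1.03 ± 0.38 (adjusted p = 0.0286) at 24 h LCM, -1.81 ± 0.40 (adjusted p = 0.000542) at 72 h LCM, -1.46 ± 0.37 (adjusted p = 0.00215) at 24 h HCM and -2.02 ± 0.41 (adjusted p = 0.000172) at 72 h HCM, the last a fold of 0.247, and PKP4-KO libraries were below WT libraries in each. Plcg1 was lower by smaller amounts, -0.61, -0.56, -0.72 and -0.70 in the same order, with adjusted p-values of 5.15e-05, 0.000134, 3.93e-06 and 6.49e-06. Its 108 neighbours within 5 Mb had medians between 0.54 and 0.68, in the other direction. Atp2b4 was lower at 72 h, with -1.80 ± 0.22 in LCM (adjusted p = 1.15e-07) and -0.99 ± 0.22 in HCM (adjusted p = 0.000459), and had values of -0.15 and -0.42 at 24 h in LCM and HCM that did not pass. Itpr3 was lower at 24 h, with -0.54 ± 0.17 in LCM (adjusted p = 0.012) and -0.80 ± 0.17 in HCM (adjusted p = 0.00032), and had -0.13 and 0.05 at 72 h. Stim2 was lower at 72 h LCM, 24 h HCM and 72 h HCM with -0.70, -0.64 and -0.95, of which that at 24 h HCM was lost without TMM factors (adjusted p = 0.102). The 21 genes within 5 Mb of Stim2 had medians of -0.25, -0.08 and -0.55 in these comparisons. Atp2a2 was lower at 72 h in LCM with -0.69 (adjusted p = 0.0495) and in HCM with -0.85 (adjusted p = 0.0147). The 109 genes within 5 Mb of Atp2a2 had medians of -0.564 and -0.655 in these comparisons. Their part in the values of Atp2a2 was not tested. Stim1 was lower at 72 h LCM with -0.29 (adjusted p = 0.0323) and was the member called higher at 72 h HCM with 0.28 (adjusted p = 0.0363), which turned to -0.48 without TMM factors. Both calls of Stim1 were lost without a filter and with only the compared groups. The latter fit also ended the call of Atp2b1 at 24 h LCM. Atp2c1 was not called. The calls at 72 h HCM rest on the 3 PKP4-KO libraries low in long genes. With an offset for gene length, Orai1, Atp2b1 and Stim2 still passed there with -1.08, -1.10 and -0.66, whereas Atp2b4 with -0.21 (adjusted p = 0.372), Plcg1 with -0.21 (adjusted p = 0.317) and Atp2a2 with -0.43 (adjusted p = 0.0837) did not. The same offset ended the calls of Plcg1 at 24 h LCM and 72 h LCM (-0.34 and -0.17), of Itpr3 and Atp2b1 at 24 h LCM (-0.23 and -0.52) and of Atp2a2 at 72 h LCM (-0.44), and turned Stim1 at 72 h LCM to 0.22. With it Itpr3 passed as higher at 72 h, with 0.33 in LCM (adjusted p = 0.0438) and 0.64 in HCM (adjusted p = 0.000307), and Stim1 at 24 h HCM with 0.45 (adjusted p = 0.0229). Calls lost without a single library were those of Atp2b1 at 24 h LCM (WT replicate 1 or PKP4-KO replicate 1 or 2), Itpr3 at 24 h LCM (PKP4-KO replicate 1), Stim1 at 72 h LCM (WT replicate 2 or 3, PKP4-KO replicate 1 or 3) and 72 h HCM (any WT replicate, PKP4-KO replicate 3), and Atp2a2 at 72 h LCM (any WT replicate, PKP4-KO replicate 1 or 2) and 72 h HCM (WT replicate 1 or 2), with adjusted p-values up to 0.261, 0.0748, 0.103, 0.246, 0.17 and 0.0809.

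**Figure D4:**
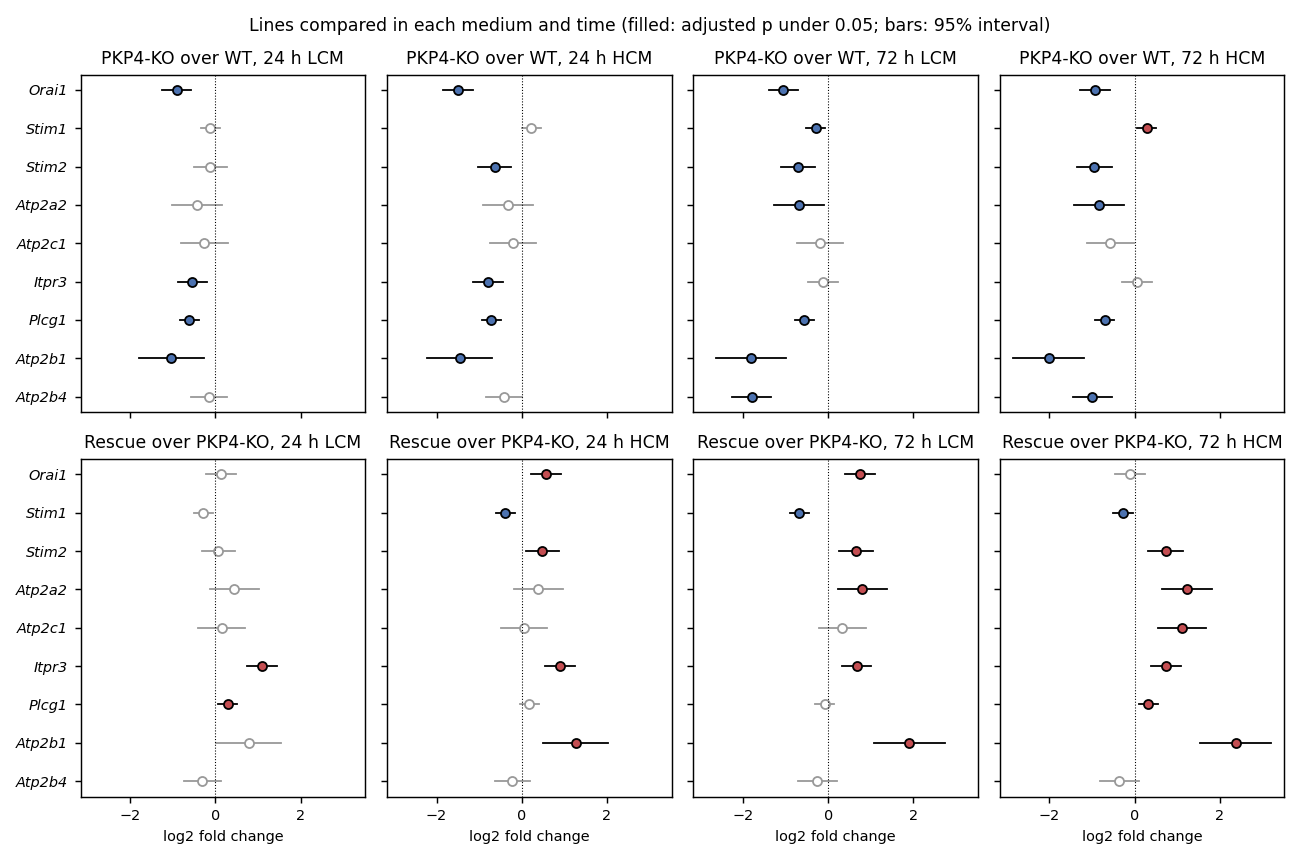
Log2 fold change of PKP4-KO over WT (upper row) and Rescue over PKP4-KO (lower row) for the 9 tested genes in each time and medium, with 95% intervals. Filled points passed an adjusted p of 0.05, red for higher and blue for lower; Orai1, Plcg1 and Atp2b1 are blue in all 4 panels of the upper row and Itpr3 is red in all 4 of the lower row, and both rows use the same PKP4-KO libraries.

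The comparison of Rescue with PKP4-KO uses the PKP4-KO libraries a second time, so that the values are given side by side and no relation between them is read. It gave 2 calls of 9 at 24 h LCM, both higher in Rescue, against 33.7% of all genes, 18.2% higher and 15.5% lower. At 72 h LCM 6 were called, 5 higher and 1 lower, against 41.5%, 23.3% higher and 18.3% lower. At 24 h HCM 5 were called, 4 higher and 1 lower, against 40.8%, 21.7% higher and 19.0% lower. At 72 h HCM 7 were called, 6 higher and 1 lower, against 66.7%, 37.2% higher and 29.5% lower. The summed simple epithelial markers, nearly all Krt7 in Rescue, were at 90.84 CPM or more in every Rescue library and at 13.25 CPM or less in every PKP4-KO library. The summed differentiated keratinocyte markers were lower in Rescue at 72 h, with 687.6 to 857.5 CPM against 8436 to 9438 CPM in HCM and 1163 to 1276 CPM against 1489 to 2355 CPM in LCM. Krt1, Krt10 and Flg had lower means in Rescue in both media at 72 h, and Tgm3 in HCM, whereas Ivl, Lor and Dsg1a had higher means in both media and Tgm3 in LCM. At 24 h the sum, with Tgm3 as its largest part in Rescue, was higher there, with 282.4 to 360.2 CPM against 72.12 to 121.8 CPM in LCM and 525.7 to 722.6 CPM against 207.7 to 358.6 CPM in HCM, although Krt1, Krt10 and Flg again had lower means. The part of these markers in the results was not tested. Atp2b1 was 1.90 ± 0.40 higher on the log2 scale at 72 h LCM (adjusted p = 0.000342), 1.27 ± 0.37 at 24 h HCM (adjusted p = 0.0072) and 2.37 ± 0.41 at 72 h HCM (adjusted p = 1.52e-05), with 0.78 ± 0.37 at 24 h LCM (adjusted p = 0.112). Itpr3 was higher in all 4, with 1.099, 0.66, 0.90 and 0.73 at 24 h LCM, 72 h LCM, 24 h HCM and 72 h HCM and adjusted p-values of 7.67e-06, 0.00224, 8.67e-05 and 0.000501. Orai1 was higher at 72 h LCM with 0.74 (adjusted p = 0.000926) and at 24 h HCM with 0.57 (adjusted p = 0.00729), and had 0.13 and -0.11 at 24 h LCM and 72 h HCM. Atp2b4 was called in none of the 4, with values between -0.36 and -0.22, but passed as lower in all 4 with an offset for gene length, with -0.62, -0.81, -0.51 and -1.54 in the same order. Stim1 was lower at 72 h LCM with -0.68 (adjusted p = 1.34e-05), at 24 h HCM with -0.39 (adjusted p = 0.00514) and at 72 h HCM with -0.28 (adjusted p = 0.029), which turned to 0.89 without TMM factors. The calls at 72 h LCM and 24 h HCM were lost without TMM factors (adjusted p = 0.179 and 0.182). Those of Stim1 at 24 h HCM and 72 h HCM were lost without a filter. The 91 genes within 5 Mb of Stim1 had medians of -0.18, -0.42 and -0.28 at 72 h LCM, 24 h HCM and 72 h HCM. Their part in the values of Stim1 was not tested. Stim2 was higher at 72 h LCM, 24 h HCM and 72 h HCM with 0.64, 0.48 and 0.73, and its 21 neighbours had medians of 0.04, -0.13 and 0.75. The call of Stim2 at 24 h HCM was lost without TMM factors and without a filter, and that at 72 h LCM with only the compared groups. Atp2a2 was higher at 72 h LCM and 72 h HCM with 0.80 and 1.24 (adjusted p = 0.000513 for the latter). Its call at 72 h LCM was lost with only the compared groups. Atp2c1 was higher at 72 h HCM with 1.12 (adjusted p = 0.000816), and Plcg1 at 24 h LCM and 72 h HCM with 0.29 (adjusted p = 0.0389) and 0.32 (adjusted p = 0.0127). Both calls of Plcg1 were lost without a filter and with only the compared groups. That at 24 h LCM was also lost without TMM factors and without the 7 libraries low in long genes. The 108 genes within 5 Mb of Plcg1 had medians of -0.594, -0.607, -0.742 and -0.567 at 24 h LCM, 72 h LCM, 24 h HCM and 72 h HCM. These medians lay in the other direction to both calls, and their part in the values of Plcg1 was not tested. The median log2 fold change of all genes was 0.20 at 72 h HCM. Without TMM factors it was 1.37, and the share of calls that were higher moved from 55.8% to 84.7%; at 72 h LCM these moved from 0.03 to 0.38 and from 56.0% to 76.9%. At 72 h HCM with an offset for gene length Atp2b1 and Atp2a2 passed with 1.03 and 0.60, Atp2c1 with 0.10, Stim2 with 0.24 and Itpr3 with -0.22 did not, and Plcg1 passed in the other direction with -0.53 (adjusted p = 0.00874). The offset also ended the calls of Itpr3 at 72 h LCM with 0.26 and of Plcg1 at 24 h LCM with 0.12. With DESeq2 Plcg1 at 72 h HCM was 0.19 (adjusted p = 0.135). Calls lost without a single library were those of Stim2 at 24 h HCM (any of the 6) and 72 h LCM (PKP4-KO replicate 2, Rescue replicate 1), Atp2a2 at 72 h LCM (PKP4-KO replicate 1 or 2, Rescue replicate 1 or 3), Orai1 at 24 h HCM (Rescue replicate 2), Stim1 at 72 h HCM (PKP4-KO replicate 3, Rescue replicate 1 or 3), and Plcg1 at 24 h LCM (PKP4-KO replicate 2 or 3, Rescue replicate 1 or 3) and 72 h HCM (Rescue replicate 2), with adjusted p-values up to 0.155, 0.151, 0.16, 0.0605, 0.218, 0.182 and 0.0504.

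Among the 12 groups, the mean level varied least for Stim1, by a factor of 1.96 between WT 72 h LCM and Rescue 72 h LCM, and it varied most for Atp2b1, by a factor of 10.01 between WT 24 h HCM with 26.6 ± 11.1 CPM and PKP4-KO 72 h LCM with 2.65 ± 0.599 CPM. For Atp2b4 the means differed by a factor of 6.94 between WT 24 h HCM with 17.5 ± 0.788 CPM and Rescue 72 h LCM with 2.52 ± 0.615 CPM. Ordered by mean, the 3 groups at 24 h HCM were the highest for Atp2b4. Most neighbours in these orders shared a range, 11 of 11 for Atp2b1 and Atp2c1, 10 for Atp2a2 and Itpr3, 9 for Orai1, Stim1 and Stim2, 8 for Atp2b4 and 7 for Plcg1. The means of Stim2 and Atp2b1 ran most alike among the members (Pearson's r = 0.922 over 12 groups), and both are among the genes that were low in the libraries low in long genes. Among all tested protein-coding genes, the pattern of Plcg1 over the 12 groups was most like that of Plcb3, another phospholipase C gene (r = 0.938). That of Orai1 was most like that of Mill2 (r = 0.977), Atp2b1 like Tm9sf3 (r = 0.974), Atp2b4 like Rbm48 (r = 0.906), Stim1 like Slit3 (r = 0.901), Stim2 like Ttc13 (r = 0.955), Atp2a2 like Cemip2 (r = 0.977), Atp2c1 like Cask (r = 0.953) and Itpr3 like Dync1h1 (r = 0.94). The 12 means come from 36 libraries that differ in length slope, and these values are a description.

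Other genes of calcium handling and of signalling linked to it were taken from 5 lists with 108 names, of which 81 were tested. Over the 5 lists, 19 were called higher and 5 lower in HCM in WT 24 h, against 7.69% and 6.48% of all genes. The counts were 15 and 11 in WT 72 h against 10.6% and 10.8%, 1 and 1 in PKP4-KO 24 h against 1.44% and 1.40%, and 18 and 19 in PKP4-KO 72 h against 12.9% and 19.7%. They were 12 and 5 in Rescue 24 h against 6% and 5.96%, and 22 and 8 in Rescue 72 h against 13.0% and 12%. Among 15 tested store pumps, channels and buffers, 5 were called higher and 1 lower in WT 24 h, 4 and 0 in WT 72 h, 1 and 0 in PKP4-KO 24 h, 6 and 1 in PKP4-KO 72 h, 4 and 0 in Rescue 24 h and 6 and 2 in Rescue 72 h, with median log2 fold changes of 0.53, 0.30, 0.23, 0.29, 0.29 and 0.38. The medians of the other 4 lists did not keep 1 sign over the 6 comparisons, and lay between -0.20 and 0.36 for entry channels, between -0.12 and 0.00 for extrusion and mitochondrial uptake, between -0.41 and 0.24 for phospholipase C and receptor coupling and between -0.13 and 0.18 for sensors and effectors. Among 12 entry channels, 3 were called higher and 1 lower in WT 24 h, 3 and 0 in WT 72 h, 0 and 1 in PKP4-KO 24 h, 4 and 2 in PKP4-KO 72 h, 1 and 2 in Rescue 24 h and 3 and 2 in Rescue 72 h. Among 11 genes of extrusion and mitochondrial uptake, between 0 and 4 were called higher and 0 or 1 lower in each comparison. Among 18 genes of phospholipase C and receptor coupling these counts were, in the same order, 6 and 1, 3 and 3, 0 and 0, 3 and 7, 4 and 1, and 5 and 4. Among 25 sensors and effectors they were 4 and 2, 3 and 7, 0 and 0, 4 and 8, 3 and 1, and 4 and 0. Of the 81 genes, 2 were called in the same direction in all 3 lines at 24 h and 5 at 72 h, compared with 190 and 656 of the 15114 genes tested.

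At 24 h these were Orai2, a second store-operated channel gene, and Tmco1, a channel of the endoplasmic reticulum that lets calcium out when the store is overfull. Orai2 had 33.1 CPM in HCM and 52.0 CPM in LCM in WT cells and log2 fold changes of -0.65, -0.47 and -0.52 in WT, PKP4-KO and Rescue, and at 72 h of -0.25 (adjusted p = 0.175), -0.75 and -1.11. Orai2 was therefore lower in HCM at 24 h in WT cells, in which Orai1 was higher. Tmco1 had 0.56, 0.54 and 0.50 at 24 h and 0.32 (adjusted p = 0.12), 0.87 and -0.01 (adjusted p = 0.981) at 72 h. At 72 h Nucb2, which encodes a calcium-binding protein of the Golgi and secretory pathway, rose from 9.75 to 33.4 CPM in WT cells, with log2 fold changes of 1.78, 1.76 and 1.25 in WT, PKP4-KO and Rescue. At 24 h it had 1.04, 0.27 (adjusted p = 0.72) and 1.43. The receptor gene P2ry2, which couples extracellular nucleotides to phospholipase C, had 1.23, 1.02 and 0.77 at 72 h and 0.59, -0.38 (adjusted p = 0.286) and 0.55 at 24 h. Prkch, the protein kinase C isoform of differentiating keratinocytes, had 0.88, 0.74 and 0.49 at 72 h and 0.93, -0.17 (adjusted p = 0.783) and 0.65 at 24 h. Plcb3, the phospholipase C isoform downstream of such receptors, fell by 0.56, 0.79 and 0.32 on the log2 scale at 72 h, as Plcg1 did, and had -0.18 (adjusted p = 0.249), -0.34 (adjusted p = 0.0546) and -0.38 at 24 h. Dgka, which removes the diacylglycerol that phospholipase C makes, fell by 0.67, 0.49 and 0.84 at 72 h. At 24 h it went the other way in WT with 0.49 (adjusted p = 0.0012), and had 0.10 and -0.07 in PKP4-KO and Rescue, which did not pass.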

How the data were processed

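Poly(A) RNA of 36 libraries was sequenced strand-specifically. Per the labels and the methods of the study, the authors used HISAT2 2.1.0 to align reads to mm39 extended by GFP-PKP4, SAMtools 1.10 to drop secondary alignments and featureCounts 2.0.0 to count the rest on Ensembl genes of GRCm39, and they deposited counts per gene, whole numbers without normalization. The strand setting of the counting is not stated in the sources used here. Gene lengths are a column of the deposited counts.

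Groups were taken from the labels. Counts were tested in R 4.3.3 with edgeR 4.0.16 (filterByExpr, TMM factors, glmQLFit, glmQLFTest) in a single model with a mean for each of 12 groups and 24 residual degrees of freedom, and p-values were adjusted over 15114 genes after Benjamini and Hochberg (threshold 0.05). Interactions were contrasts of this model. The alternatives were DESeq2 1.42.0, library sizes without TMM factors and other filters (none, or at least 10 counts in every library). Further ones were a replicate block, a fit of the compared groups alone and each library left out. An offset for gene length and leaving out 7 libraries were chosen after seeing the data. Same-numbered LCM and HCM libraries deviated together in WT 24 h, with correlations of 0.483, 0.348 and 0.35. The block changed no call of a member there. It was a single term for the replicate number, shared by all 12 groups. It therefore did not model a pairing of LCM with HCM within a line and time, and such a pairing was not tested. Over 36 pairs of libraries of a group, chi-square per gene was 7.13 to 272, so none was a copy of another. On simulated counts of WT 24 h, 47% of genes with a log2 change of 1 and 65% of genes with a log2 change of 2 were recovered among 14884 tested, with 5 false calls. The counts were drawn gene by gene, without the slopes on gene length that the libraries had. They therefore do not give the share of false calls in the real data. Sequences and positions came from GRCm39 with GENCODE vM39, in which 98.9% of genes matched by identifier. All 37 mitochondrial genes were listed at 0. Named were the members, Pkp4, marker genes, the 3 genes most alike to each member, of which the first is given, and listed calcium genes called the same way in all 3 lines. The members and lists were chosen with earlier results of these data known.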

Additional observations from a re-analysis of the deposited data

Results flagged for a closer look

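The response to the medium differed between lines or times for 4 of the 9 tested members, in 8 tests of the difference itself (edgeR, adjusted over all genes). Among all genes the same tests called between 4.35% (WT over time) and 31.5% (Rescue against PKP4-KO at 72 h), and 2 of 9 members were called in each of these comparisons. The shares of members and of all genes were not compared by a test. When single libraries were left out, 5 of the 8 calls were lost in at least 1 fit, and those of Orai1 between Rescue and PKP4-KO at 72 h and of Stim1 and Atp2b4 in WT over time remained, although all 3 were lost without TMM factors. For Stim1 the log2 difference was 0.57 between PKP4-KO and WT at 72 h, where the log2 fold change of HCM over LCM was -0.33 and -0.90. It was -0.72 between 72 h and 24 h in WT and -0.50 between these times in PKP4-KO. For Orai1 it was -0.85 between Rescue and PKP4-KO at 72 h, with -0.40 and 0.45 in the lines, and -0.74 between 72 h and 24 h in Rescue. For Plcg1 it was 0.40 between Rescue and PKP4-KO at 72 h and -0.53 between 72 h and 24 h in PKP4-KO. For Atp2b4 it was -1.36 between 72 h and 24 h in WT, the largest of the 8. The 3 PKP4-KO libraries at 72 h HCM enter 5 of these tests and were low in long genes, and their part in the results was not tested.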

How the results depend on the processing

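Of the 68 values called for single members, 790 of 1000 recomputed values kept direction and call, 202 no longer passed and 8 changed sign; of 121 values not called, 62 of 2024 recomputed values passed and 173 changed sign. With library sizes without TMM factors, Orai1 turned to -0.22 in the response of PKP4-KO at 72 h, and Stim1 to -0.48 in PKP4-KO against WT and to 0.89 in Rescue against PKP4-KO at 72 h HCM. With an offset for gene length, Stim1 turned to 0.028 in the response of PKP4-KO at 72 h and to 0.22 in PKP4-KO against WT at 72 h LCM, Plcg1 to -0.11 in the difference of the responses of Rescue and PKP4-KO at 72 h and to -0.53 in Rescue against PKP4-KO at 72 h HCM, and Itpr3 to -0.22 in the latter. The cause was not tested. Counts of members called changed as follows. Without TMM factors they were 0 in the response of PKP4-KO 24 h and Rescue 72 h and in the differences PKP4-KO minus WT at 72 h, WT over time and Rescue over time, 4 in Rescue minus PKP4-KO at 72 h, and 1 and 3 in Rescue against PKP4-KO at 24 h LCM and HCM. Without a filter they were 1 in the response of WT 24 h, PKP4-KO 72 h and Rescue 24 h and in the differences Rescue minus PKP4-KO at 72 h and WT over time, 0 in the differences PKP4-KO minus WT at 72 h, PKP4-KO over time and Rescue over time, and 1 and 3 in Rescue against PKP4-KO at 24 h LCM and HCM. With only the compared groups in the fit they were 1 in WT 24 h, PKP4-KO 72 h, Rescue 72 h and Rescue against PKP4-KO at 24 h LCM, 0 in PKP4-KO 24 h, 1 in Rescue minus PKP4-KO at 72 h, and 0 in PKP4-KO minus WT at 72 h and PKP4-KO over time. DESeq2 gave 2 in PKP4-KO 24 h and 1 in Rescue minus PKP4-KO at 72 h and PKP4-KO over time. The length offset gave 1 in Rescue minus PKP4-KO at 72 h, WT over time and PKP4-KO against WT at 24 h LCM, and 0 in PKP4-KO over time. Leaving out the 7 libraries gave 3 in PKP4-KO minus WT at 72 h and 0 in Rescue over time. With a single library left out, the count ranged from 1 to 2 in WT 24 h, 1 to 3 in PKP4-KO 72 h, 1 to 4 in Rescue 72 h, 0 to 1 in PKP4-KO minus WT at 72 h and Rescue over time, 1 to 3 in Rescue minus PKP4-KO at 72 h, 0 to 2 in PKP4-KO over time, 2 to 4 in PKP4-KO against WT at 24 h LCM, and 1 to 3 and 3 to 4 in Rescue against PKP4-KO at 24 h LCM and HCM. Atp2b4 in WT and Rescue at 24 h, Stim1 in WT at 72 h, Plcg1 in WT and PKP4-KO at 72 h and Orai1 in the 4 comparisons of PKP4-KO with WT were called under all 14 alternatives each. Deviations of same-numbered LCM and HCM libraries had correlations of -0.561 to 0.504, over 0.1 in 9 of 18 pairs, with 10 best with their own number. In WT 24 h all 3 pairs were over 0.1 (0.483, 0.348 and 0.35), and in the other 5 lines and times at least 1 pair was not. In PKP4-KO 72 h all 3 were best with their own number (0.0258, 0.123 and 0.139), and in Rescue 72 h none was (-0.0632, -0.125 and 0.0177). Whether same-numbered libraries outside WT 24 h belong together cannot be told from these values. With the replicate number as a block the count was 1 in Rescue minus PKP4-KO at 72 h (Plcg1 lost) and 6 in PKP4-KO against WT at 72 h LCM (Atp2a2 lost), and otherwise as reported. Low counts limit Casr. The replicates of Atp2b1 and Atp2a2 were far apart, and which of their responses passed differed between the settings.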
